A study of Canis lupus familiaris with 14 samples.

Results

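Expressed genes without introns were examined in blood of dogs, in 7 libraries labelled lymphoma (a cancer that arises from lymphocytes) and 7 control libraries labelled non-lymphoma. Members were chosen by their annotation and, in part, selected on the measured counts themselves. They were the genes with a single exon, a length of at least 400 bases and a place on a numbered chromosome or X that reached at least 10 counts in at least 7 of the 14 libraries. Genes of chromosome 35 starting between 22000000 and 27000000 and of chromosome 12 starting below 3000000 were left out. Of 30951 genes in the table, 6265 had 1 exon, 2521 of these passed on length and place, 2497 remained outside both regions, and 457 were members. Total RNA of blood was sequenced and read pairs were counted per gene. The series text speaks of the controls as non-lymphoma disease, and the labels used here give neither that disease nor breed, age, stage, lymphoma type or treatment. The libraries are separate samples in the labels, which do not state that each came from another dog, so p-values measure only the spread between these libraries. The identifiers are not paired with symbols in the files, so members are given by their position in CanFam3.1, and cell type markers and other gene lists could not be matched.

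Most mammalian genes are split by introns. Intronless genes fall into a few well-known kinds, among them histone genes, many receptors of the G protein-coupled family, fast-induced regulators of transcription, and retrocopies, which arise when a spliced messenger RNA is copied back into the genome. Olfactory receptors are the largest family of intronless coding genes in mammals and are mostly silent outside the nose. Since a read on a gene without introns crosses no splice junction, RNA and DNA give the same reads there. A gene of this kind on the opposite strand of another gene also cannot be told from its partner when counting ignores strand, as here.

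Lengths of nearly all members were those of coding sequences. Of the 457 members, 451 (98.7%) had a length that was a multiple of 3. The share was 97.7% for single-exon genes that missed the rule on counts, and 42.6% for genes with several exons. Lengths of those 451 were thus read as coding lengths, with almost no untranslated parts in the models. Member lengths ran from 402 to 5415 bases with a median of 1098. The share of genes that met the rule on counts differed with length. It was 30.2% of 334 genes from 400 to under 700 bases, 8.11% of 678 genes from 700 to under 1000 bases, 24.5% of 1034 genes from 1000 to under 2000 bases and 10.6% of 451 genes of 2000 bases or more. In the second of these bins, 571 genes were within 100 bases of its upper end, and 25 of them were members. Members also stood more alone among their own kind. No other single-exon gene of the class lay within 100000 bases of 314 members (68.7%), against 50.8% of the 2040 genes that missed the rule on counts. At least 5 such genes lay within that distance of 4 members (0.875%) and of 369 genes that missed the rule (18.1%). Strands were near even, with 242 members on the plus and 215 on the minus strand.

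Overlap with other genes was always on the opposite strand. None of the 2497 genes overlapped a gene of its own strand in this annotation. Of the members, 370 overlapped no other gene, 68 lay inside an intron of a gene of the opposite strand, and 19 touched an exon of such a gene. Read pairs that touch exons of both genes are left uncounted when the counting program is run without an option for them, so counts of these 19 are uncertain. Of the 370 free members, 53 began within 5000 bases past the end of a gene on their own strand.

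The rule on counts admitted members more often through the non-lymphoma than the lymphoma libraries. At least 10 counts were reached in all 14 libraries by 247 members. More non-lymphoma than lymphoma libraries reached 10 counts in 186 members, and more lymphoma libraries in 13. For 45 members all 7 non-lymphoma but fewer than 4 lymphoma libraries reached 10 counts, and for 5 members no lymphoma library did. Such members had to differ or to lie near the threshold, so counts over the members describe the list and support nothing by themselves. Just inside the threshold, 20 members reached 10 counts in exactly 7 libraries, with median counts over the libraries from 6 to 14.5. Just outside it, 31 genes did so in 6 libraries, with median counts from 3.5 to 9.

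Total counts ranged from 9845059 to 14831589 in lymphoma libraries and from 13522628 to 21610927 in the others. Genes of the same class that missed the rule gave at least 1 count in 197 to 453 genes per lymphoma library and in 415 to 1220 per non-lymphoma library. After every library was thinned to 9845059 counts the numbers were 197 to 443 and 336 to 972, where non-lymphoma replicate 2 (336) lay within the lymphoma range and the others (from 537) above it. These genes took 71.1 to 219 CPM of the library total in the lymphoma group and 101 to 268 in the other, and these ranges overlapped. Thinned libraries held 308 to 384 members with at least 10 counts in the lymphoma group and 358 to 424 in the other. The median log2 CPM over tested members was 1.59 to 1.97 in lymphoma against 1.89 to 2.19 in non-lymphoma libraries. Over tested genes with several exons it was 3.79 to 3.98 and 3.71 to 3.93. CPM is the count scaled to library size in the usual way, elsewhere with TMM-corrected sizes, and log2 CPM carries a prior count of 2. Library depth and the number of rarely read genes thus moved with the group, and their part in the results on members was not tested.

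**Figure D1:**
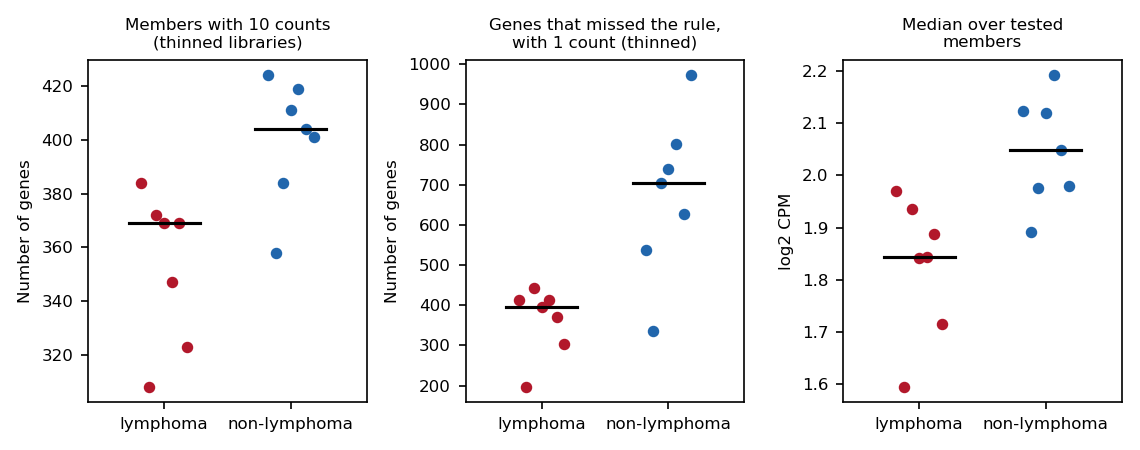
Each point is 1 library, 7 lymphoma and 7 non-lymphoma, and bars are medians. The axes start above 0 and show numbers of genes (left and middle, libraries thinned to 9845059 counts) and median log2 CPM over 441 tested members (right); the lymphoma median is the lower one in each panel, with overlap between the groups.

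Levels of members were uneven, and 4 of them supplied much of the signal. RPKM, the count per kilobase of annotated length scaled to the library total, ran from 0.22 to 6731 with a median of 3.73, against a median of 7.89 for tested genes with several exons, whose lengths include untranslated parts more often. All members together took 1.27 ± 0.167% of the lymphoma and 1.30 ± 0.156% of the non-lymphoma counts (SD, n = 7 each), a difference of -0.0339 percentage points that is smaller than either SD. The 4 members with the largest share held 56.1% of all member counts on average, from 34.6% to 72.9% by library. Without them the members' share was 0.461 ± 0.108% for lymphoma and 0.676 ± 0.154% for non-lymphoma (SD, n = 7 each). The 20 most abundant genes of the table held 1 member, the 433-base gene of chromosome 15. With those 20 genes left out of members and total alike, members took 1.69 ± 0.208% and 1.48 ± 0.137% (SD, n = 7 each), a difference of 0.211 percentage points. Leaving the 20 genes out of the total alone gave a difference of 0.262, and leaving that member out of the members alone gave -0.0341, so the sign turned with the total used.

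The member with the highest level lay on chromosome 15 at 17705308 to 17705740 and was 433 bases long. It had 1894 to 5029 CPM in lymphoma, with a median of 2673, and 936 to 5226 CPM in non-lymphoma libraries, with a median of 2412. The lymphoma range lay inside the non-lymphoma range, and its log2 fold change of 0.16 (standard error 0.35, edgeR adjusted p = 0.771) did not pass. It ran from 0 without lymphoma replicate 6 to 0.40 without non-lymphoma replicate 2. Next in RPKM was a gene of 428 bases on chromosome 6 at 42693804 to 42694231, with 138 to 446 CPM in lymphoma (median 241) and 846 to 1466 CPM in non-lymphoma libraries (median 1002). Its groups did not overlap, and it fell by 1.90 on the log2 scale (standard error 0.27, edgeR adjusted p = 0.000952). These 2 short genes were unusual among members in that their lengths were not multiples of 3. Neither overlapped another gene, and their mean RPKM over all libraries was 6731 and 1707. A 1311-base gene on chromosome 17 at 54967089 to 54968399 had 1141 to 7555 CPM in lymphoma (median 2348) and 522 to 3178 CPM in non-lymphoma libraries (median 1304). The groups overlapped, and its log2 fold change of 1.17 did not pass (standard error 0.47, edgeR adjusted p = 0.0932), although DESeq2 called it.

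Among the other abundant members, a 4758-base gene on chromosome 14 was higher in every lymphoma library and is described with the rises. The remaining 6 of the 10 members with the highest RPKM did not pass edgeR's test. On chromosome 1 at 117198289 to 117199284, a 996-base gene had 223 to 541 CPM in lymphoma against 213 to 1073 in non-lymphoma libraries. On chromosome 37 at 24843171 to 24844247, a 1077-base gene had 111 to 303 and 149 to 418 CPM. On chromosome 20 at 49359399 to 49360442, a 1044-base gene had 77.3 to 269 and 119 to 572 CPM. In these 3 genes the highest non-lymphoma value was that of replicate 7, and their log2 fold changes of -0.56, -0.37 and -0.77 shrank to -0.28, -0.20 and -0.40 without it. On chromosome X at 44508997 to 44509863, an 867-base gene had 11.7 to 234 CPM in lymphoma against 14.3 to 386 CPM in non-lymphoma libraries, the widest ranges of these 6 as a ratio of highest to lowest. A 1245-base gene on chromosome 28 at 3670455 to 3671699 had 134 to 233 against 186 to 301 CPM, a log2 fold change of -0.43 (standard error 0.17, edgeR adjusted p = 0.0817), which DESeq2 called. A 1371-base gene on chromosome 9 at 41535738 to 41537108, inside an intron of an opposite-strand gene, had 111 to 248 and 75.3 to 242 CPM.

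**Figure D2:**
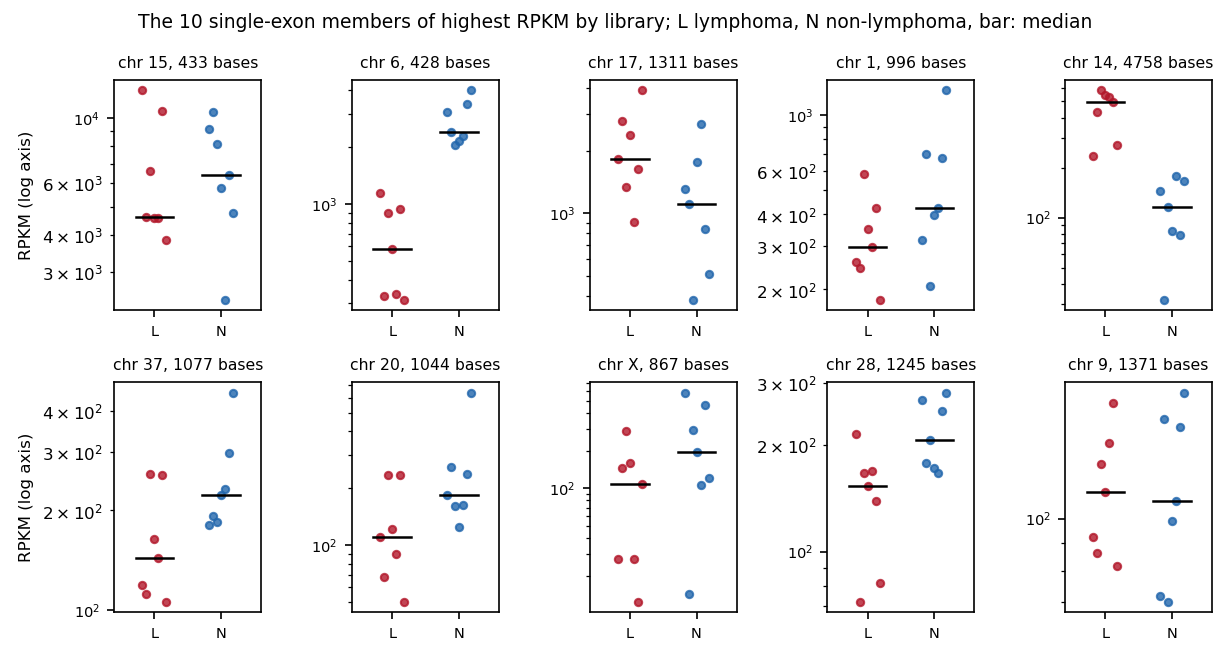
RPKM on a log axis in each library for the 10 members of highest mean RPKM, named by chromosome and annotated length, with L for the 7 lymphoma and N for the 7 non-lymphoma libraries and bars for medians. The groups lie fully apart for the chromosome 6 gene of 428 bases, lower in lymphoma, and for the chromosome 14 gene of 4758 bases, higher in lymphoma.

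The comparison of the groups asked which genes without introns differed in the blood of dogs with lymphoma. Of 441 members tested, 63 were called lower in lymphoma (14.3%) and 19 higher (4.31%) by edgeR's quasi-likelihood test at an adjusted p under 0.05. Over all 12836 genes tested, 7.4% were called lower and 9.21% higher, 16.6% in either direction. The members' total of 82 calls (18.6%) was near that background, and its balance lay toward lower values. In 186 members more non-lymphoma than lymphoma libraries met the rule on counts, and in 13 more lymphoma libraries did. This balance and the shares below thus describe the list and support nothing by themselves. The median log2 fold change was -0.28 for members and -0.05 for all genes, and 282 members (63.9%) had a value below 0 against 52.7% of all genes. In bulk blood, fewer cells of a type and less RNA per cell cannot be told apart. CPM ranges of the groups did not overlap in 24 members that were lower (5.44%) and 2 that were higher (0.454%), against 1.75% and 2.03% of all genes, 3.78% in either direction. A log2 fold change of 1 or more in size was seen in 50 members called lower (11.3% of those tested, against 3.2% of all genes) and 12 called higher (2.72%, against 5.28%). Medians over called members were -1.35 and 1.29, and over all genes called they were -0.94 and 1.10. Tested members lay at a lower level than all genes tested (median average log2 CPM 2.01 against 3.82), and these comparisons were not matched by level. Against all genes the lean depended on the filter, since with every gene fitted the median was -0.35 for members and -0.45 for all genes, which then included many rarely read ones. With upper-quartile scaling the balance over all genes was 985 higher to 1181 lower, and over members 13 to 68. The other 16 members failed the filter on low counts, with median counts from 6 to 11 and no count above 58. With 1 library left out, 48 to 68 members were called lower and 11 to 20 higher. The count of higher members was 11 when lymphoma replicate 1 or 5, or replicate 6 of the controls, was left out. In all 14 of these runs 42 of the 63 lower and 8 of the 19 higher members kept their call, and over all genes 468 of 950 and 703 of 1182 did. Within the 9 libraries whose sample numbers in the labels have 5 digits, 2 of them lymphoma, 4 members were called lower and 2 higher. Over all genes 22 and 82 were, and the members' median log2 fold change was -0.23.

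**Figure D3:**
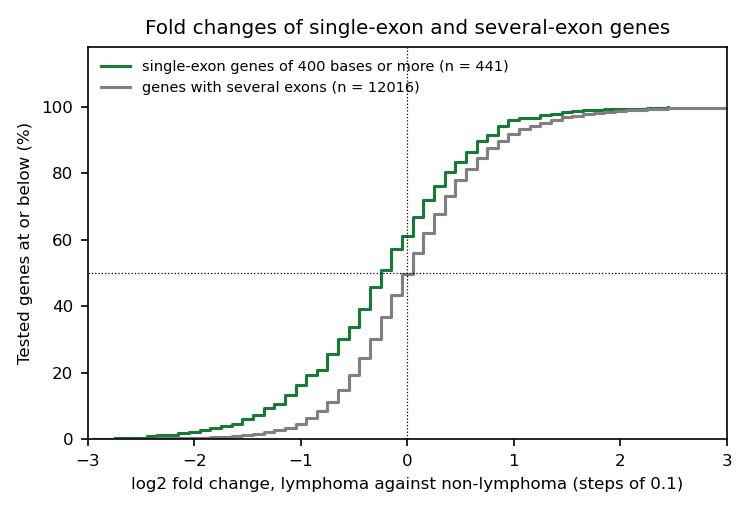
Share of tested genes at or below each log2 fold change of lymphoma against non-lymphoma, in steps of 0.1 and with values beyond 3 in either direction placed at 3, for 441 members (green) and 12016 genes with several exons (grey). The curve of the members lies to the left of the other up to about 2, with fitted values below 0 for 63.9% of members and 52.7% of genes with several exons.

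Members' medians lay below those of genes with several exons at each level of expression, a description of a list chosen in part on counts. Members with an average log2 CPM under 1 had a median log2 fold change of -0.41, and genes with several exons at that level had -0.17. At 1 to 3 the medians were -0.26 and -0.05, at 3 to 5 they were -0.11 and -0.03, and above 5 they were -0.38 and -0.02. Of the 143 members with an average log2 CPM of at least 3, 24 were called lower and 9 higher. At that level 8.25% of all genes tested were called lower and 11.4% higher. The spread of members within a group was close to that of other genes, with a median SD of 0.67 in log2 CPM over lymphoma and 0.52 over non-lymphoma libraries at levels of 1 to 3, against 0.67 and 0.51 for genes with several exons. Above a level of 5 it was 0.50 and 0.57 for members and 0.41 in both groups for genes with several exons.

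By length, members from 1000 to under 2000 bases leaned furthest. Of 242 tested in that bin, 37 were called lower (15.3%) and 7 higher (2.89%), and their median log2 fold change was -0.39. Of 98 members under 700 bases 16 were called lower (16.3%) and 5 higher (5.1%), with a median of -0.23. Of 53 members from 700 to under 1000 bases 5 were called lower (9.43%) and 2 higher (3.77%), with a median of -0.16. Of 48 members of 2000 bases or more 5 were called in each direction (10.4% each), with a median of -0.06. Over all genes tested 7.4% were called lower and 9.21% higher, so shares in some bins were near the background. The differences between bins were not tested. Over all alternative fits and runs with 1 library left out, medians ran from -0.30 to -0.06 in the shortest bin, from -0.23 to -0.07 in the next, from -0.46 to -0.33 in the third and from -0.13 to 0.02 in the longest. The shortest bin reached -0.06 without non-lymphoma replicate 3 and -0.14 without lymphoma replicate 4, and the second -0.07 without non-lymphoma replicate 1 and -0.10 without lymphoma replicate 4. Calls in these small bins were unsteady. Against 5 higher calls in the shortest bin, 1 was made without lymphoma replicate 1 or 5 or replicate 5 or 7 of the controls. Against 5 lower calls in the second bin, 1 was made without lymphoma replicate 5 or replicate 2 or 7 of the controls. Against 5 higher calls in the longest bin, 2 were made without lymphoma replicate 1 or replicate 6 of the controls. Median RPKM was 7.37 in the shortest bin, then 5.86 and 2.59, with 2.91 in the longest. A threshold of 10 counts stands for a higher RPKM in a shorter gene, so the rule itself favours such an order.

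By overlap, members inside an intron of an opposite-strand gene had a median log2 fold change near 0. Of 64 tested, 7 were called lower (10.9%) and 4 higher (6.25%), with a median of 0.02. Runs that left out 1 library called 2 to 6 of them lower, with 2 in the run without lymphoma replicate 5, and 1 to 4 higher, with 1 in the runs without lymphoma replicate 4, 5 or 7 or replicate 5 or 6 of the controls. Over all genes tested 7.4% were called lower and 9.21% higher. Of 358 members that overlapped no gene, 53 were called lower (14.8%) and 14 higher (3.91%), with a median of -0.31. The 19 members that touched an exon of an opposite-strand gene had 3 lower (15.8%) and 1 higher call (5.26%) and a median of -0.48. Free members that began within 5000 bases past a same-strand gene leaned most, with a median of -0.54 and 44 below 0. Of these 52, 12 were called lower (23.1%) and 2 higher (3.85%). Free members farther away had 41 lower (13.4%) and 12 higher calls (3.92%) of 306 and a median of -0.27. These classes overlap in length and in gene density, and the differences between them were not tested. Across every fit the median ranged from -0.05 to 0.09 for intronic members and from -0.63 to -0.42 for those just past a gene.

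Gene density around a gene moved with the fold change of members and of other genes alike. Density was the number of annotated genes whose midpoint lay within 250000 bases, and tested genes were split at 7 and 14 neighbours. Members in sparse surroundings had a median log2 fold change of -0.05, those in the middle class -0.27 and those in dense surroundings -0.45. Genes with several exons had 0.16, 0.02 and -0.31. The members' median was the lower one in each density class. In dense surroundings 24 of 132 members were called lower and 6 higher, and in sparse surroundings 15 of 145 and 5. Of genes with several exons, 13.1% were called lower and 2.74% higher in dense surroundings, and 3.61% and 14.1% in sparse ones. For members those shares were 18.2% and 4.55% in dense and 10.3% and 3.45% in sparse surroundings. Members called higher numbered 2 in dense surroundings without non-lymphoma replicate 2 or 7, and 1 in sparse ones without lymphoma replicate 1. Median density was 10 neighbours for both members and genes with several exons.

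**Figure D4:**
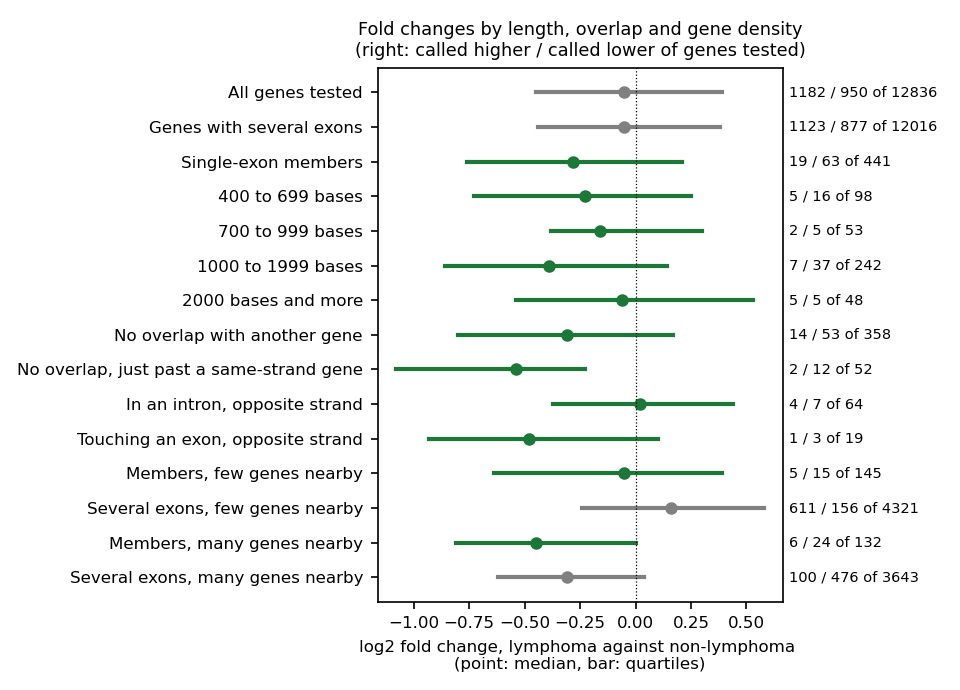
Median (point) and quartiles (bar) of the log2 fold change of lymphoma against non-lymphoma for members by length, overlap and gene density (green) and for other genes (grey), with the numbers called higher and lower of those tested at the right. Medians of the member classes run from -0.54 just past a same-strand gene to 0.02 in an intron. Members lie left of genes with several exons in both density classes drawn.

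Each member was also set beside the genes around it. Against the nearest tested gene with several exons that it did not overlap, a member's log2 fold change was lower in 275 of 441 pairs, with a median difference of -0.30. In these pairs 63 members were called lower and 19 higher, and the neighbour was called lower in 26 pairs and higher in 42. In 8 pairs both genes were called lower, in 4 both higher, and in 0 pairs were the calls opposite. How many joint calls such numbers would give by themselves was not tested. For 53 intronic members with a tested host gene, the median was 0.05 for members and 0.13 for hosts. Member and host fold changes had the same sign in 26 of 53 pairs. Calls were 4 lower and 3 higher for members and 2 lower and 7 higher for hosts, and in 0 pairs were both called. Across these pairs, which share libraries and depth, Pearson's r was 0.03 and Spearman's rho -0.02, given as a description. For 32 members just past a tested same-strand gene with several exons, medians were -0.54 for members and -0.30 for the upstream genes, with the same sign in 24 pairs and Pearson's r of 0.31 (Spearman's rho 0.34). In these pairs 7 members and 6 upstream genes were called lower, and both were called lower in 2.

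The fall with the lowest p was that of ENSCAFG00000019278, 1152 bases on chromosome 20 at 56109058 to 56110209. It had 25.6 to 56.9 CPM in lymphoma, with a median of 47.4, and 85.7 to 224 CPM in non-lymphoma libraries, with a median of 166. Every lymphoma library lay below every non-lymphoma library, and the log2 fold change was -1.81 (standard error 0.25, edgeR adjusted p = 0.000815). ENSCAFG00000049921, 1029 bases on chromosome 18 at 54084638 to 54085666, had 0.9 to 4.35 CPM in lymphoma (median 1.66) and 7.21 to 20.8 CPM in non-lymphoma libraries (median 11.8). The groups were again apart, and the gene fell by 2.50 (standard error 0.35, edgeR adjusted p = 0.000907). It began 1502 bases past the end of a same-strand gene with 2 exons at 54087168 to 54097170, which also fell, by 1.16 (edgeR adjusted p = 0.00991). Mean RPKM over all libraries was 7.62 for the member and 4.03 for the upstream gene.

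The largest fall among members with an average log2 CPM of at least 1 was on chromosome 24 at 36661616 to 36662656, in a gene of 1041 bases. It had 7.34 to 21.3 CPM in lymphoma (median 11.5) and 15.1 to 269 CPM in non-lymphoma libraries (median 65.5), with the highest value in replicate 7 and the lowest in replicate 3. Non-lymphoma replicates 1 and 3 (19 and 15.1 CPM) lay within the lymphoma range and the other 5 above it, and the log2 fold change was -2.78 (standard error 0.54, edgeR adjusted p = 0.00488). A 516-base gene on chromosome 1 at 102100308 to 102100823 had 0 to 1.43 CPM in lymphoma against 1.63 to 4.71 CPM in non-lymphoma libraries, a fall of 2.25 (standard error 0.45, edgeR adjusted p = 0.00588). It began 286 bases past a same-strand gene. The count of 0, in lymphoma replicate 2, allows up to 0.305 CPM. On chromosome 38 at 23702033 to 23705314, a 3282-base gene that began 21 bases past a same-strand gene had 0.3 to 1.84 against 2.02 to 9.36 CPM and fell by 1.95 (standard error 0.44, edgeR adjusted p = 0.0101). Groups did not overlap in either of these 2 genes.

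Of the other 5 falls, 4 had overlapping groups, and 2 of these touched an exon of another gene. A 1230-base gene on chromosome 6 at 39289814 to 39291043 touched an exon of an opposite-strand gene and had 0.45 to 1.52 against 1.19 to 9.06 CPM, with a fitted log2 change of -2.21 (edgeR adjusted p = 0.00646). It began 865 bases past a same-strand gene. A 1203-base gene on chromosome 18 at 55429308 to 55430510, which began 4083 bases past a same-strand gene, had 0.15 to 5.24 against 3.3 to 17.1 CPM. It fell by 2.14 (edgeR adjusted p = 0.0163). A 4149-base gene on chromosome 22 at 58223387 to 58227535 had 2.99 to 12.2 against 8.75 to 47.9 CPM and fell by 1.94 (edgeR adjusted p = 0.00633). A 939-base gene on chromosome 7 at 14555992 to 14556930, which also touched an exon of an opposite-strand gene, had 3.75 to 8.9 against 7.54 to 62.3 CPM. Its log2 fold change of -1.72 (edgeR adjusted p = 0.0122) became -1.11 without non-lymphoma replicate 7, which held the highest value. The fifth, the 428-base gene of chromosome 6 described above, had groups that did not overlap and began 4312 bases past a same-strand gene. The 10 falling genes were picked as the largest called falls, and some met the rule on counts mainly through non-lymphoma libraries. The 1230-base gene of chromosome 6 had counts of 6 to 10 in lymphoma against 17 to 206. The 516-base gene of chromosome 1 had 0 to 17 against 34 to 84. Such a choice favours separation and steady calls. In all 10 falling genes every lymphoma library lay below the non-lymphoma median, and all 10 kept their call in each run with 1 library left out. None of them passed within the 9 libraries with 5-digit numbers, where their log2 fold changes ran from -3.61 to -1.60, for example -1.88 for ENSCAFG00000019278 (edgeR adjusted p = 0.114) and -2.43 for ENSCAFG00000049921 (edgeR adjusted p = 0.0987).

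**Figure D5:**
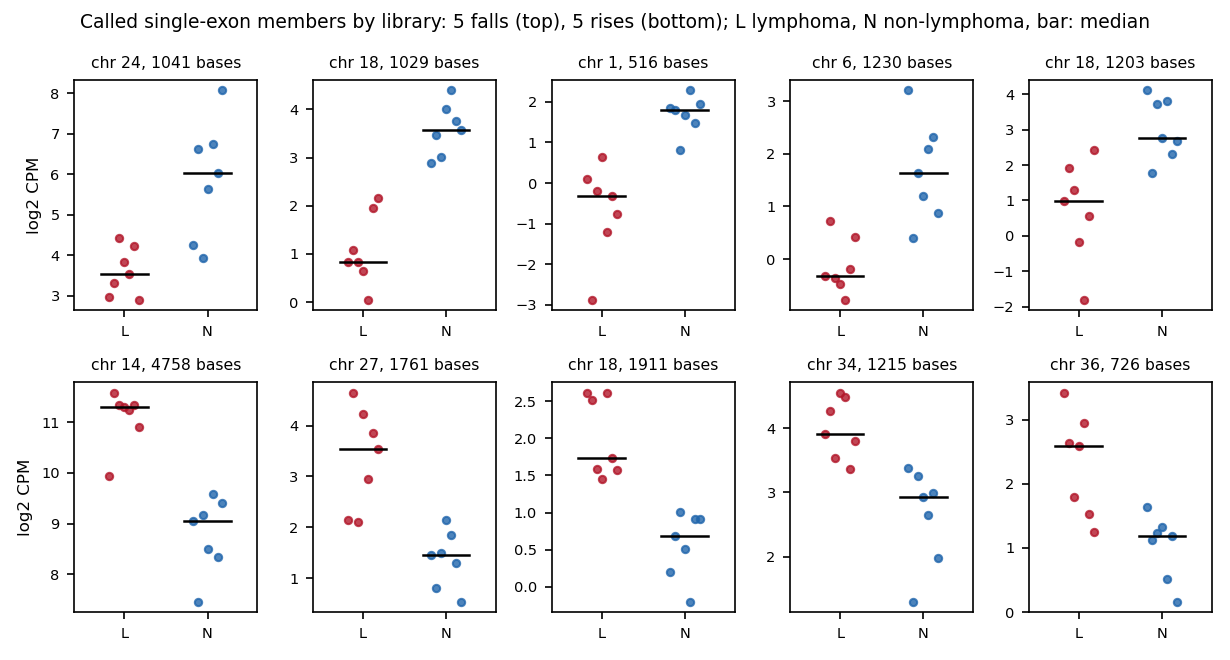
Log2 CPM in each library for 5 members called lower (top) and 5 called higher (bottom), named by chromosome and coding length, with L for lymphoma, N for non-lymphoma and bars for medians. In 4 of the 10 panels (chromosome 18, 1029 bases; chromosome 1; chromosome 14; chromosome 18, 1911 bases) no lymphoma library lies within the non-lymphoma range.

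Among the rises, ENSCAFG00000002007 had the highest level. It is 4758 bases long, lies on chromosome 14 at 18643998 to 18648755, and overlaps no other gene. It had 980.1 to 3065 CPM in lymphoma, with a median of 2523, and 175 to 765 CPM in non-lymphoma libraries, with a median of 527. Every lymphoma library lay above every non-lymphoma library. Mean RPKM was 442 in lymphoma and 114 in non-lymphoma blood, and the log2 fold change was 2.24 (standard error 0.33, edgeR adjusted p = 0.00103). Within the 9 libraries with 5-digit numbers it was 2.36 (edgeR adjusted p = 0.035).

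ENSCAFG00000024414, 1761 bases on chromosome 27 at 26035792 to 26037552, had 4.15 to 24.9 CPM in lymphoma (median 11.5) and 1.31 to 4.28 CPM in non-lymphoma libraries (median 2.6). Its ranges overlapped slightly, at 4.15 and 4.28, and its log2 fold change was 2.21 (standard error 0.41, edgeR adjusted p = 0.00405). It was the other named rise called within the 9 libraries (2.07, edgeR adjusted p = 0.0455). A second gene of exactly 1761 bases lay 63054 bases farther on the same strand, at 26098846 to 26100606, with 1.19 to 11.1 against 0.707 to 2.02 CPM and a log2 fold change of 1.79 (standard error 0.48, edgeR adjusted p = 0.0199). Lymphoma replicate 2 was highest in both. Members of equal length on 1 chromosome formed 9 pairs in all, and this was the closest pair and the only one with both genes called. Whether the genes are near-identical copies was not examined, and reads could be split between them if so.

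A 1911-base gene on chromosome 18 at 990481 to 992391 had 2.61 to 6 CPM in lymphoma against 0.73 to 1.88 CPM in non-lymphoma libraries, with no overlap and a log2 fold change of 1.55 (standard error 0.31, edgeR adjusted p = 0.00551). A 726-base gene on chromosome 36 at 14401508 to 14402233 had 2.25 to 10.5 against 0.979 to 2.99 CPM, a rise of 1.45 (standard error 0.36, edgeR adjusted p = 0.0142). A 1215-base gene on chromosome 34 at 26497607 to 26498821 had 10.2 to 23.4 against 2.31 to 10.2 CPM, a rise of 1.29 (standard error 0.30, edgeR adjusted p = 0.0118). In the shortest bin the called rise of lowest p was a 477-base gene on chromosome 11 at 52047550 to 52048026, inside an intron of an opposite-strand gene, with 28 to 59.8 against 12.1 to 31.6 CPM and a log2 fold change of 0.86 (standard error 0.23, edgeR adjusted p = 0.0209). In these 4 genes all 7 lymphoma libraries lay above the non-lymphoma median, which their choice as called rises favours.

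The remaining 4 rises lost their call when 1 of several libraries was left out. A 1128-base gene on chromosome 2 at 75658999 to 75660126 had the largest fitted rise, 2.38 (standard error 0.76, edgeR adjusted p = 0.0435), with 0 to 14.7 CPM in lymphoma against 0 to 2.16 in non-lymphoma libraries. Its counts of 0, in lymphoma replicate 7 and non-lymphoma replicate 2, allow up to 0.305 and 0.183 CPM. The call was lost without lymphoma replicate 1, which was highest (1.71, edgeR adjusted p = 0.113), and also without replicate 4 or 5 of lymphoma, or any of replicates 2 to 7 of non-lymphoma (2.17 to 2.45). A 2424-base gene on chromosome 3 at 73568321 to 73570744, with 12.1 to 46.1 against 5.26 to 14.9 CPM, rose by 1.16 (edgeR adjusted p = 0.0255), a call lost without lymphoma replicate 1 (0.90), non-lymphoma replicate 5 (1.11) or non-lymphoma replicate 6 (1.04). A 2127-base gene on chromosome 14 at 50925878 to 50928004, in an intron, had 0.922 to 5.01 against 0.272 to 2.21 CPM and a fitted log2 change of 1.45 (edgeR adjusted p = 0.0436). Its call was lost without any 1 of replicates 1, 2, 4, 5 and 7 of lymphoma and 2, 4, 5, 6 and 7 of non-lymphoma (1.28 to 1.49). Its 12-exon host at 50488300 to 51337168 had a fitted log2 change of 0.97 (edgeR adjusted p = 0.0625). A 2214-base gene on chromosome 16 at 7305902 to 7308115, with 1.72 to 7.83 against 1.32 to 4.38 CPM, rose by 1.02 (edgeR adjusted p = 0.046), and the call was lost without any 1 of replicates 1, 2, 4, 6 and 7 of lymphoma and 1, 2, 3, 6 and 7 of non-lymphoma (0.89 to 1.03).

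Some called members had a host or upstream gene that was not called. These were chosen after their values were seen. A 1977-base gene on chromosome 3 at 64646051 rose by 0.88 (edgeR adjusted p = 0.0354), while its 12-exon host had a fitted log2 change of -0.39 (edgeR adjusted p = 0.371). A 1368-base gene on chromosome 8 at 71321625 fell by 1.06 (edgeR adjusted p = 0.0127), and its 6-exon host had 0.35 (edgeR adjusted p = 0.371). A 1188-base gene on chromosome 5 at 76286789, just past a 21-exon gene of its strand, fell by 2.43 (edgeR adjusted p = 0.00311), and that gene had -0.11 (edgeR adjusted p = 0.659). A 1108-base gene on chromosome 30 at 39267768 to 39268875, another of the 6 members with a length that is no multiple of 3, fell by 2.71 (standard error 0.59, edgeR adjusted p = 0.00825), and the 9-exon gene before it had -0.32 (edgeR adjusted p = 0.0917). The members of chromosomes 5 and 30 had an average log2 CPM of 0.61 and 0.8, below the level of 1 asked of the named falls. The difference between member and partner was not tested.

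Members were spread over the genome, and shares called per chromosome rest on few members. On chromosome 1, 7 of 30 tested members were called lower and 1 higher, against 9.57% and 7.21% of all genes tested there. On chromosome 9, 6 of 27 were called lower and 0 higher, against 80 and 43 of all 799 genes tested there. On chromosome X, 4 of 23 were called lower and 0 higher, against 9.16% and 5.3%. On chromosome 20, 4 of 19 were called lower and 0 higher, with a median log2 fold change of -0.55, and all genes there had 15.6% and 4.14% and a median of -0.29. Chromosomes 3, 14 and 27 each had 2 members called higher and 0 lower, and there 11.6%, 11.1% and 13.3% of all genes were called higher. By library, lymphoma replicate 2 was the lowest of the 14 in 23.4% of tested members (against 18.4% of all genes tested). Non-lymphoma replicates 7 and 5 were the highest in 63 and 57 members (14.3% and 12.9%, against 12.7% and 6.35% of all genes), and lymphoma replicate 1 was the highest in 62 (14.1%, against 14.2%).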

How the data were processed

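Blood RNA was sequenced in 7 lymphoma and 7 non-lymphoma libraries. The authors deposited raw counts of read pairs per gene, made with featureCounts 2.0.1 on exons of a CanFam3.1 annotation, with no strand, multi-mapping or multi-overlap option, per the file headers. HISAT2 2.2.1 is named in the submitters' processing notes. Of the identifiers, 0 matched the reference gene table, and no genome of this build was used, so no sequences are shown. Exons were merged per gene to find members. All genes were fitted together with edgeR 4.0.16 (R 4.3.3, quasi-likelihood test, TMM, filterByExpr, group as the only term, Benjamini-Hochberg adjustment at 0.05). Each standard error is the size of the log2 fold change over the root of its F statistic. The biological coefficient of variation was 41.5%. The procedure was tested on simulated data. Python 3.11.15 was used for the rest. Alternatives were other scalings, no filter, DESeq2 1.42.0, thinning, subsets of libraries and other rules for members.

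Members, classes and lists were chosen with earlier results of these data known. Members described singly were the 10 of highest RPKM, the 10 largest rises and 10 largest falls among called members with an average log2 CPM of at least 1, and the called member of lowest p per length bin and direction, 29 in all. The density classes and nearest-neighbour pairs were added after seeing the data. The libraries were all distinct (smallest chi-square per degree of freedom 59.2 within a group). In the labels the sample numbers of all 7 non-lymphoma and 2 lymphoma libraries have 5 digits. The file header writes 4 of the other lymphoma libraries with 5 digits too, starting with 0. In that header 9 libraries have numbers starting with 1, and 1 library has no number. Whether the numbers mark a batch is unknown and was not tested. Intervals and limits cover counting error only.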

Additional observations from a re-analysis of the deposited data

Results flagged for a closer look

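A library stood apart in 3 of the 64 groups of 7 that were looked at, and chance alone flags near 1 group in 20 (3.2 here). Values below are the distance from that library to its neighbour as a part of the whole range. Lymphoma replicate 1 was the lowest lymphoma library in the 4758-base gene of chromosome 14 at 18643998 (ENSCAFG00000002007), with a value of 0.59. It still lay above every non-lymphoma library. Lymphoma replicate 5 was the lowest in the 2214-base gene of chromosome 16 at 7305902 (0.57). Non-lymphoma replicate 2 was the lowest of its group in the number of members with at least 10 counts (0.65), with 408 against up to 451.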

How the results depend on the processing

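The median log2 fold change of tested members ran from -0.35 to -0.23 over the alternatives, and from -0.29 to -0.23 with 1 library left out. It lay below that of all genes under each alternative scaling, DESeq2, thinning and in each subset, and above it without a filter (-0.35 against -0.45). Members called lower numbered 48 to 68 and higher 11 to 20 with 1 library left out. Without a filter on low counts 10 members were called higher and 56 lower, against 869 and 1133 over all genes. Within the 5-digit libraries 2 were called higher and 4 lower, of 82 and 22 over all genes, with fewer libraries in the fit. With the replicate number as a replicate block 7 were called higher and 26 lower, against 440 and 285 over all genes. Deviations of same-numbered libraries correlated from -0.337 to 0.345, and 1 of 7 lymphoma libraries correlated best with its own number. These correlations cannot decide whether the numbers pair the libraries. DESeq2 called 24 higher and 82 lower, against 1742 and 1648 over all genes. Upper-quartile factors turned the balance over all genes to 985 higher and 1181 lower, and among members to 13 and 68. Calls were 17 higher and 56 lower with thinned libraries, against 1157 and 903 over all genes. They were 20 and 63 with members chosen by a mean of 10 counts, and 14 and 53 without overlapping members. Both of the latter kept the main fit over all genes, with 1182 higher and 950 lower.

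The difference in the share of counts on members was -0.0339 percentage points, -0.0727 to 0.000503 with 1 library left out, and 0.211 with the 20 most abundant genes, 1 of them a member, left out of members and total. Of 637 refits of the members described singly, 569 kept direction and side of the threshold, 66 lost the call, 2 gained it and 0 reversed. Low levels limit 124 tested members with an average log2 CPM under 1, of which 2 were called higher and 14 lower.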
